A study of Mus musculus with 4 samples.

Results

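A divergent promoter is a stretch of DNA from which 2 neighbouring genes are transcribed away from each other, one from the minus strand and the other from the plus strand. Runx2, the transcription factor that directs osteoblast commitment, was mapped by ChIP-Seq in MC3T3-E1 cells, and 865 divergent promoters carried a Runx2 peak at all 3 time points. They were selected on the peak lists themselves: any peaks with 1 bp or more in common were joined across the 3 lists, which gave 67703 merged regions, and a region was kept when it held a peak of every list and overlapped starts of 2 protein-coding genes on opposite strands, with the minus-strand start on the left and at most 1000 bp between the starts (GENCODE M1, mouse build mm9). The 865 regions make up 4.65% of the 18584 regions bound at all 3 time points and 1.28% of all merged regions, and they serve 1739 genes. One gene pair lay in each of 850 regions and 2 pairs in each of the other 15. In 197 regions the genes also have other annotated starts that lie across each other, so the 2 transcription units overlap there.

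MC3T3-E1 subclone 4 is a clonal preosteoblast line from the calvaria of C57BL/6 mice, so every value describes 1 line in culture. Cells were studied while proliferating (day 0), while depositing matrix (day 9) and while mineralizing (day 28), the later 2 stages being reached in medium with ascorbic acid and beta-glycerophosphate. Chromatin was precipitated with the Runx2 antibody M70, the 2 libraries of each time point were pooled by the authors, and input DNA of matrix-depositing cells was the control for all 3. The day 0 list held 25457 peaks, the day 9 list 60596 and the day 28 list 40330, with no read counts per peak. Read totals are not used here, so scores were not set against depth, and the purity of the cells cannot be checked against marker genes here. Each time point has a single pooled list, so no test between time points was possible, and the differences below are descriptions. The 95% intervals cover the sampling of regions only (exact binomial for shares, order statistics for medians).

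Divergent promoters are common in mammalian genomes, where they are typically rich in CpG dinucleotides and lack a TATA box. Their genes often serve functions that nearly every cell needs, such as DNA repair, protein folding and translation, and a shared promoter lets the 2 genes be transcribed in concert. RUNX factors recognise the core sequence TGTGGT through the Runt domain, and the DNA between the starts was read for these letters.

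The stretch between the 2 starts is shown for the 4 highest ranked regions that qualified, ranked by the lowest of their 3 score percentiles, because these carried high-scoring peaks in every list. Only stretches of 20 to 300 bp outside every annotated exon were eligible, which left 482 of the 865 regions. Sequences are of NCBIM37 (mm9), plus strand, with the minus-strand gene to the left, and capitals mark TGTGGT or its complement. The printed stretch lies within the bound region but not always under its strongest peak, which at Polr2l/Tspan4 begins to its right in all 3 lists.
Polr2l/Tspan4, chr7:148661032-148661138: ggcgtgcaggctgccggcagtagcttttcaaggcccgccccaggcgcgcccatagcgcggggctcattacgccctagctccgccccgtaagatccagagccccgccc
1810031K17Rik/Fam134a, chr1:75139272-75139359: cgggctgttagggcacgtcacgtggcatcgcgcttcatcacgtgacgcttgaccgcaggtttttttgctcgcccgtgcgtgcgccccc
Ddx5/Ccdc45, chr11:106650500-106650565: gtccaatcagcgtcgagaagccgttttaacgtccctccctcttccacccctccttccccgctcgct
Erich1/Gm10699, chr8:14090328-14090460: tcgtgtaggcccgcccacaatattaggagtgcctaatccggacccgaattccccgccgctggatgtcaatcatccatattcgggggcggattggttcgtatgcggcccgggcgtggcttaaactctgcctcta
None of these 4 stretches held the RUNX core. The Polr2l/Tspan4 stretch held 3 copies of GGGCGG, the Sp/KLF box, and the 1810031K17Rik/Fam134a stretch held 2 copies of CACGTG, the E-box. The Ddx5/Ccdc45 stretch held 1 CCAAT box, the NF-Y motif, and the Erich1/Gm10699 stretch held 1 CCAAT box and 2 Sp/KLF boxes.

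The RUNX core was present in 16 of the 482 stretches, and the 4 highest ranked of these are shown for comparison.
Sharpin/Maf1, chr15:76181542-76181723: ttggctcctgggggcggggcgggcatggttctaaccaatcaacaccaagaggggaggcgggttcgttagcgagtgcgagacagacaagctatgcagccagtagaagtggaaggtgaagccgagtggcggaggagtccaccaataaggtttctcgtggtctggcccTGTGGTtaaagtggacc
Hnrnpk/Rmi1, chr13:58503875-58503957: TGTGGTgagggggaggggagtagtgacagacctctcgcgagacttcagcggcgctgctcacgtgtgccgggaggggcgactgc
Cyb5d2/Zzef1, chr11:72609645-72609727: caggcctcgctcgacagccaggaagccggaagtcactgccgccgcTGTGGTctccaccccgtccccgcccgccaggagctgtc
Thap4/Atg4b, chr1:95651416-95651481: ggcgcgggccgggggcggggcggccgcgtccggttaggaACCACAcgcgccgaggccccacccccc
Sharpin/Maf1, where Maf1 encodes a repressor of RNA polymerase III, had list percentiles (the percentile of a region's score within a list) of 98.9, 97.4 and 97.8 on days 0, 9 and 28. Hnrnpk/Rmi1, with the gene for the RNA-binding protein hnRNP K, had 94.1, 97.4 and 97.8. Cyb5d2/Zzef1 had 92.7, 93.9 and 95.4, and Thap4/Atg4b, with a gene for an autophagy protease, had 88.6, 97.4 and 97.8. Over all 829 regions with starts at least 20 bp apart, exons included, 47 had TGTGGT between the starts (5.67%, interval 4.20 to 7.47%), at 0.318 copies per kb. Across the whole width of the regions the density was 0.477 copies per kb, against 0.531 per kb in single-start regions and 1.40 per kb in startless regions. Single-start regions are the 7249 regions bound at all 3 time points that overlap starts of 1 gene without a divergent partner, and startless regions are the 10163 that overlap no protein-coding start.

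The 2 known divergent pairs with an eligible stretch are Mrps12/Sars2, which encode a mitochondrial ribosomal protein and the mitochondrial seryl-tRNA synthetase, and Wrap53/Trp53, which encode a telomerase Cajal body protein and p53.
Mrps12/Sars2, chr7:29526840-29527009: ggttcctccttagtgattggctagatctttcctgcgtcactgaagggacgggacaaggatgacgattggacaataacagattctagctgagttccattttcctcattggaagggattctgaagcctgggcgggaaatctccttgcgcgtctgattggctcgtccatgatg
Wrap53/Trp53, chr11:69393758-69393860: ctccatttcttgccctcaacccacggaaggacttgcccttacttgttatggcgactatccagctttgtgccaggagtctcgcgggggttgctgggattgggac
The Mrps12/Sars2 stretch held 4 CCAAT boxes and 1 Sp/KLF box, the Wrap53/Trp53 stretch held 1 CCAAT box, and neither held the RUNX core.

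Most annotated divergent promoters were among the bound ones. Of 1080 annotated divergent pairs, 878 had both starts in 1 region bound at all 3 time points (81.3%, interval 78.8 to 83.6%). Counted by gene, 84.8% of the genes of divergent pairs had a start in a region bound at all 3 time points, compared with 36.6% of the other protein-coding genes. These shares use the peaks that chose the regions and are given as background. The share was 88.0% for starts 1 to 100 bp apart, 80.5% for 101 to 200 bp, 86.3% for 201 to 300 bp and 82.5% for 301 to 500 bp. It was 51.7% for 501 to 1000 bp, where a single region must span the longest stretch. At the limit of the rule, the widest pairs inside were Pdzd7/Sfxn3 with starts 987 bp apart, BC053749/Hspb6 with 976 bp and Mrpl41/Pnpla7 with 935 bp. Just outside it were Sgsm2/Tsr1 with 1018 bp, 4632434I11Rik/Prcp with 1020 bp and D330041H03Rik/Rnps1 with 1051 bp, each also bound at all 3 time points.

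**Figure D1:**
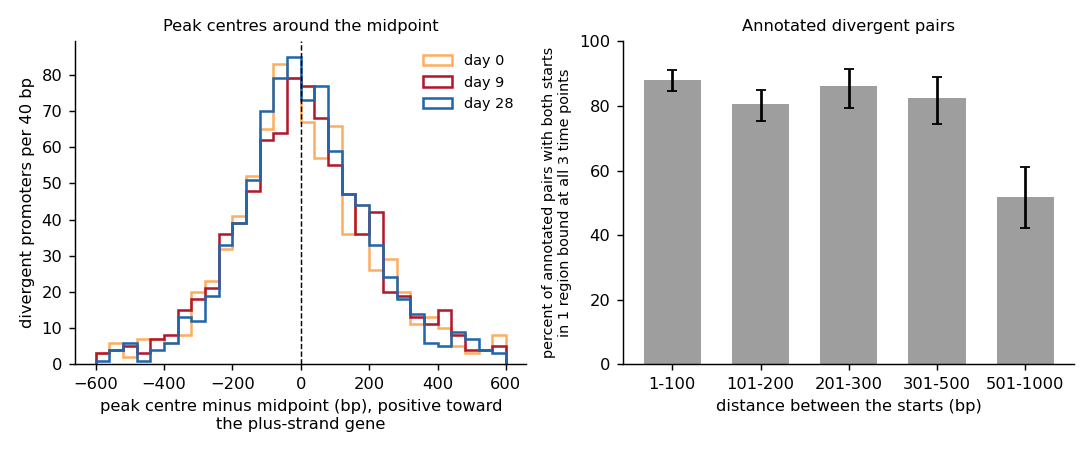
Left, number of divergent promoters (y axis, per 40 bp) by the position of the highest-scoring peak's centre relative to the midpoint between the starts (x axis, bp, positive toward the plus-strand gene) in each list, drawn within 600 bp. Right, percent of annotated divergent pairs (y axis) with both starts in 1 region bound at all 3 time points, by the distance between the starts (x axis, bp), with 95% intervals; the share is 88.0% for the closest starts and 51.7% for the widest, and the centres lie about evenly on both sides of the midpoint.

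Of the 202 annotated pairs not counted as bound, 92 had no peak on either start in any list, 17 had one in 1 list, 65 in 2 lists and 28 in all 3 lists without 1 region over both starts. Among the 92 were Abcg5/Abcg8, which encode the sterol transporter of liver and intestine, Col4a4/Col4a3, which encode basement membrane collagen chains of the kidney glomerulus, Kirrel2/Nphs1, the latter encoding nephrin of the podocyte, and Duox2/Duoxa2, which encode the thyroid NADPH oxidase and its maturation factor. Broadly used genes were among them too, such as Rnf151/Rps2 with a ribosomal protein gene, Uqcr10/Zmat5 with a complex III subunit and 2610109H07Rik/Mad2l2. These 7 were picked after their values were seen. Divergent promoters with a peak in only 1 or 2 lists numbered 64, and 50 of these were bound at day 9 and day 28 without day 0.

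The bound regions were compact, with a median width of 1386 bp (interval 1344 to 1431) and a median of 124 bp between the starts (interval 113 to 136). In 756 of 865 regions (87.4%) a single peak covered both starts in each of the 3 lists. The centre of a peak was taken as the middle of its interval. It lay a median of 126 bp from the midpoint between the starts at day 0, 131 bp at day 9 (interval 120 to 143) and 118 bp at day 28. The centre lay on the side of the plus-strand gene in 48.6% of regions at day 0, 51.1% at day 9 and 49.8% at day 28, and each interval included 50%. Which gene is on the plus strand depends only on the orientation of the genome, so this share says nothing about transcription. At single-start regions a different measure was taken. There the centre lay upstream of the nearest start in 42.6%, 32.3% and 33.9% of regions, with a median position 60 bp downstream of it at day 9.

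The centre fell between the 2 starts in 31.7% of divergent promoters at day 0, 28.8% at day 9 and 33.6% at day 28. This share was higher where the starts were farther apart. At day 9 it was 12.4% for starts 1 to 100 bp apart and 58.3% for starts 501 to 1000 bp apart. Among the 274 regions with starts at least 200 bp apart it was 56.2%, 48.2% and 62.0% in the 3 lists. Of the 616 regions whose day 9 centre lay outside the starts, 359 (58.3%) had all 3 centres outside on the same side. The 3 centres of a region spread over a median of 129 bp. Some regions depart widely from this picture. At Polr2l/Tspan4, the highest-ranked region, the strongest peak was centred 2171 bp from the midpoint toward Tspan4 at day 0 and 1584 bp at day 9, and at Sobp/9030612E09Rik it was centred 1379 bp toward Sobp at day 0 and 1129 bp at day 9.

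Peak strength was described by the deposited MACS score, which is minus 10 times log10(p) of the peak. Scores depend on depth, so each region was given the percentile of its highest-scoring peak within its own list. The divergent promoters had a median percentile of 65.3 (interval 63.4 to 67.5) on day 0, 86.0 (interval 85.1 to 86.9) on day 9 and 82.5 (interval 81.0 to 84.1) on day 28. Single-start regions stood at 60.2, 85.4 and 82.2, and startless regions at 58.6, 71.3 and 62.6. At day 0 the interval of the divergent promoters lay above that of single-start regions (59.2 to 61.2), whereas at days 9 and 28 the intervals overlapped. Of the divergent promoters 70.6% were above the 50th percentile of all 3 lists, compared with 61.1% of single-start and 42.8% of startless regions.

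These percentiles rise with the length of a list, since the longer lists of days 9 and 28 hold more weak peaks beneath any given region. Ranks were therefore also taken among the 18584 regions bound at all 3 time points only, a choice made after seeing the data. On this scale the divergent promoters had medians of 56.4 (interval 54.2 to 58.9), 63.7 (interval 61.6 to 65.9) and 65.8 (interval 63.2 to 68.6) on the 3 days. Single-start regions stood at 50.4, 62.3 and 65.2, and startless regions at 48.7, 35.9 and 35.0. From day 0 to day 28, 611 of 865 divergent promoters (70.6%) and 72.5% of single-start regions moved up in this ranking, against 36.3% of startless regions. The place of startless regions at day 0 depended on the scale. With every list cut to the 25457 highest-scoring peaks, they had medians of 68.8, 57.8 and 59.6, beside 67.1, 68.4 and 74.6 for divergent promoters and 63.2, 68.4 and 74.6 for single-start regions, so at day 0 they stood above both.

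**Figure D2:**
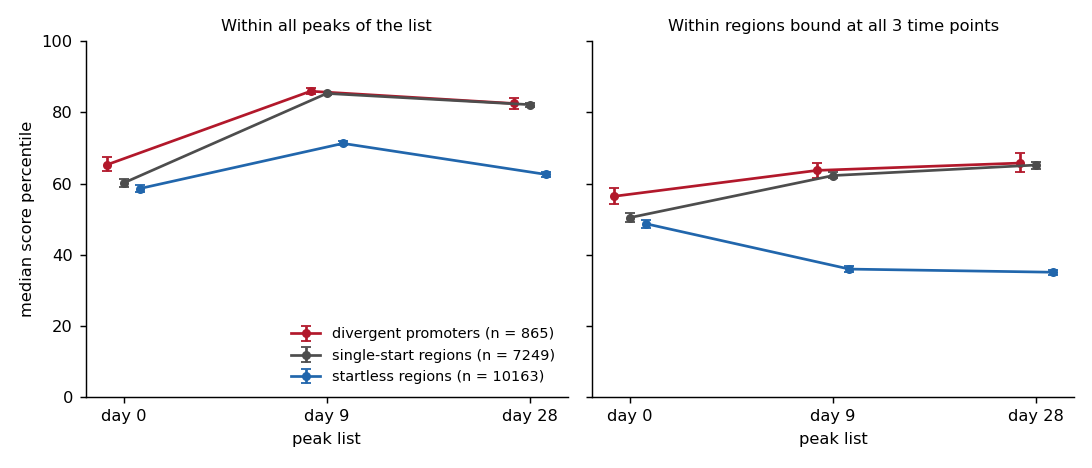
Median score percentile (y axis) in the 3 peak lists (x axis) of divergent promoters, single-start regions and startless regions, with 95% intervals. On the left the percentile is taken within all peaks of a list, where divergent promoters go from 65.3 at day 0 to 86.0 at day 9; on the right it is taken among regions bound at all 3 time points, where they go from 56.4 to 63.7 while startless regions go from 48.7 to 35.9.

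The order among the divergent promoters was largely shared between lists. Across the 865 regions, Spearman's rho of the list percentiles was 0.714 between days 0 and 9, 0.753 between days 0 and 28 and 0.920 between days 9 and 28. These are descriptions over regions, and the lists share the input control and the sequence of each region. In all 3 lists 82 divergent promoters (9.48%) were above the 90th percentile, close to the 8.29% of single-start regions. Below the 50th percentile in all 3 lists were 21 divergent promoters.

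The highest-ranked region was Polr2l/Tspan4 (chr7:148660719-148664855), where Polr2l encodes a small subunit shared by the nuclear RNA polymerases. Its highest-scoring peak lay on the Tspan4 side and covered neither start in any list, so the scores are not those of a peak over the starts. That peak scored 3100 on days 0 and 9 and 3171 on day 28. A value of 3100 was shared by 192, 2699 and 1468 peaks of the lists and exceeded by 19, 211 and 162. Slx1b/Bola2 (chr7:133838749-133840226), of which Slx1b encodes a subunit of a structure-specific DNA endonuclease, scored 2246, 3100 and 3210. Scores of 3100 in every list were found at 1810031K17Rik/Fam134a, at Ddx5/Ccdc45, where Ddx5 encodes an RNA helicase, at 5031425E22Rik/Mll5, where Mll5 encodes a chromatin regulator, and at Erich1/Gm10699. Their common list percentiles were 99.5, 97.4 and 97.8.

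The 6 lowest-ranked regions were near the lowest score that the lists retain, 100, in at least 1 list. Vmp1/Ptrh2 had the lowest day 0 score, 100.1, beside 276 at day 9 and 264 at day 28. Gm9900/Sh3bp5l had the lowest day 9 score, 100.7, and Hist1h2ah/Hist1h2bk the lowest day 28 score, 104. The other 3 were low at day 0: Tbccd1/Dnajb11 scored 104, Fnip2/4930589L23Rik 103 and Rps27/Rab13, with the ribosomal protein gene Rps27, 102. A region is lost from the set once 1 list drops it, so these regions mark its edge.

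The largest upward shift in list percentile between day 0 and day 28 was at Pdgfa/6330403L08Rik (chr5:139469548-139472658), where Pdgfa encodes platelet-derived growth factor A, a mitogen for mesenchymal cells. Its scores of 136, 2686 and 3100 on days 0, 9 and 28 correspond to list percentiles of 16.8, 94.0 and 97.8. Among regions bound at all 3 time points its rank was 10.5, 83.6 and 95.4, so the shift was also large on the scale that does not depend on list length. Its only day 0 peak covered neither start, being centred 943.5 bp from the midpoint, whereas the day 28 peak covered both and was centred 102.5 bp away. The shift therefore compares peaks at different positions. The next 4 were Gm9967/Ypel3 (11.4, 81.9 and 82.7), Gm10517/Trp53bp2 (8.46, 81.9 and 81.7), Fnip2/4930589L23Rik (1.49, 70.3 and 70.1) and Sobp/9030612E09Rik (10.5, 81.5 and 78.6). Trp53bp2 encodes a p53-binding regulator of apoptosis and Fnip2 a partner of folliculin. In all 5 pairs day 0 was low and days 9 and 28 were both high. At Sobp/9030612E09Rik too the only day 0 peak covered neither start. It was centred 1379 bp toward Sobp, against 70 bp at day 28.

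Histone gene pairs went the other way. Replication-dependent histone genes lie in clusters, frequently as head-to-head H2a and H2b genes, and are transcribed chiefly in S phase. Of 67 such genes, 27 were in annotated divergent pairs and 17 were at 9 bound divergent promoters, 8 of them H2a/H2b pairs and 1 Gm17658/Hist1h4d. The 9 regions had median list percentiles of 69.3, 67.6 and 42.8 on days 0, 9 and 28, whereas over all divergent promoters it was 65.3, 86.0 and 82.5. Among regions bound at all 3 time points the 9 had median ranks of 61.1, 30.7 and 16.1, and all 9 ranked lower at day 28 than at day 0, compared with 254 of all 865 divergent promoters. Within the whole lists 8 of the 9 were lower at day 28, the exception being Gm17658/Hist1h4d (74.8, 90.3 and 79.4). Over all divergent promoters 93 of 865 were lower in list percentile at day 28 than at day 0.

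Hist1h2bl/Hist1h2ai (chr13:21807234-21809078) scored 763 at day 0, 507 at day 9 and 355 at day 28. Hist1h2ag/Hist1h2bj (chr13:22134331-22135672) scored 475, 262 and 230. Hist1h2ap/Hist1h2br (chr13:21924838-21926374) scored 448, 558 and 140. Hist1h2ah/Hist1h2bk (chr13:22126931-22128361) scored 278, 330 and 104. These 4 pairs and S100a1/S100a13, 2 genes for calcium-binding proteins, had the 5 largest downward shifts in list percentile. Some of these shifts also compare peaks at different positions. At Hist1h2ah/Hist1h2bk the day 28 peak covered neither start and was centred 367 bp toward Hist1h2ah, against 45 bp toward Hist1h2bk at day 0. The day 28 peak at Hist1h2ag/Hist1h2bj covered only the Hist1h2ag start, and the day 9 peak at S100a1/S100a13 covered neither start. At the other pairs the peaks of days 0 and 28 covered both starts. Patterns over time differed among the 4 histone pairs. Hist1h2bl/Hist1h2ai and Hist1h2ag/Hist1h2bj were already lower in list percentile at day 9, while Hist1h2ap/Hist1h2br stood at 69.3, 69.6 and 17.4 and Hist1h2ah/Hist1h2bk at 51.1, 56.6 and 2.11. Histone genes with a single start were lower as well: of 27 single-start regions at these genes, 25 ranked lower at day 28 than at day 0 among regions bound at all 3 time points, with medians of 54.2, 34.8 and 24.7, and 19 were lower in list percentile. Over all 7249 single-start regions 1991 ranked lower and 804 were lower in list percentile. The histone genes are near-identical copies, so reads may be split or shared between them and the values of a single pair are uncertain. Regions that share reads are not separate observations, so the counts over the 9 and the 27 regions are uncertain too.

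**Figure D3:**
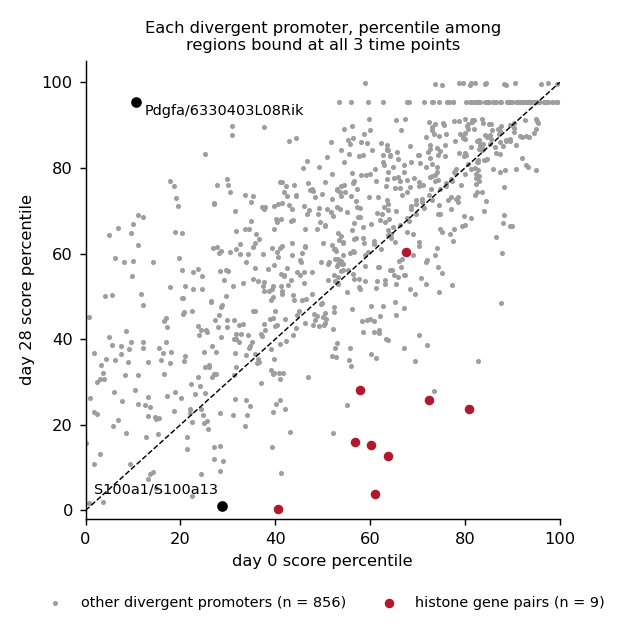
Score percentile at day 28 (y axis) against day 0 (x axis) of each of the 865 divergent promoters among regions bound at all 3 time points; the dashed line marks equal percentiles. All 9 histone gene pairs lie below the line, Pdgfa/6330403L08Rik is at 10.5 on the x axis and 95.4 on the y axis, and S100a1/S100a13 is at 28.7 and 0.923. The day 0 peak at Pdgfa/6330403L08Rik covers neither start, and the day 28 peak at Hist1h2ah/Hist1h2bk also covers neither.

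Several groups of genes with functions common to all cells had larger shares at these promoters than protein-coding genes as a whole. Of all 22359 protein-coding genes, 7.78% were at a bound divergent promoter. The share was 37.0% of RNA polymerase subunits (10 of 27), 34.8% of DNA replication and repair genes (40 of 115), 32.3% of chaperones (21 of 65), 30.3% of mitochondrial ribosomal proteins (23 of 76) and 28.9% of aminoacyl-tRNA synthetases (11 of 38). It was 25.4% of replication-dependent histones, 18.4% of respiratory chain and ATP synthase genes (16 of 87), 17.8% of proteasome genes (8 of 45) and 15.8% of cytosolic ribosomal proteins (12 of 76). Of 41 osteoblast genes, such as Runx2 and Sp7, 0 were at a bound divergent promoter (upper limit 8.60%) and 0 were in an annotated divergent pair. A start in a region bound at all 3 time points was found for 24 of them (58.5%). This share was 41.2% over all protein-coding genes and 75.6 to 97.4% in the other groups. Annotation alone, before any peak is considered, puts 10 of the 27 RNA polymerase subunits and 11 of the 38 synthetases in divergent pairs. These are the same counts as at bound divergent promoters. It puts 42 of the 115 replication and repair genes, 22 of the 65 chaperones and 24 of the 76 mitochondrial ribosomal genes there. The counts are 13 of 76 for cytosolic ribosomal, 10 of 45 for proteasome, 27 of 67 for histone and 24 of 87 for respiratory genes. Over all protein-coding genes the share is 9.57% (2139 genes), and 1739 of these are at a bound divergent promoter.

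**Figure D4:**
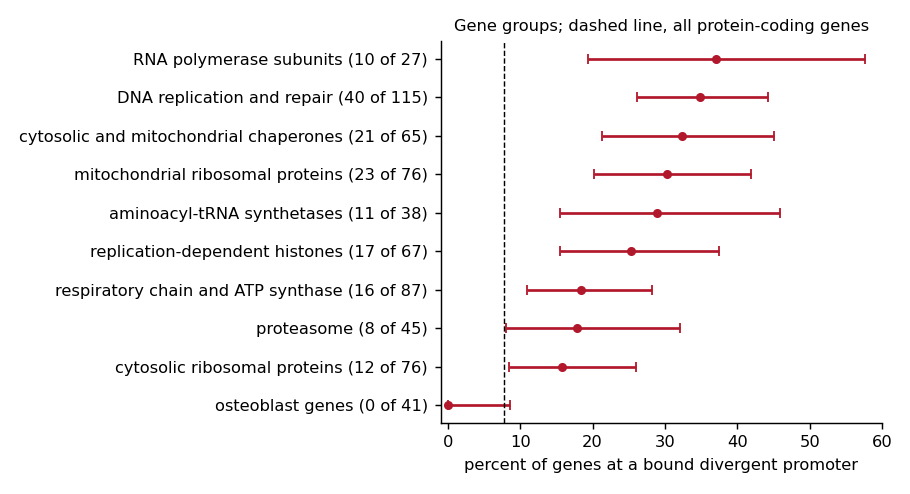
Percent of the genes of each functional group (rows, with counts) that are at a divergent promoter bound at all 3 time points, with exact 95% intervals; the dashed line is the share of all protein-coding genes, 7.78%. RNA polymerase subunits are at 37.0%, the same as their share in annotated divergent pairs, and osteoblast genes are at 0.

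Among RNA polymerase subunits, Polr3c/Rnf115 scored 989 at day 0 and 3100 at days 9 and 28, and Polr2b, the second largest subunit of RNA polymerase II, shared a region with 2610024G14Rik that scored 868, 1650 and 1484. Polr1a, the largest subunit of RNA polymerase I, faced Ptcd3 at a region scoring 565, 1353 and 1973. The 10 regions ranked at 62.2, 59.9 and 69.0 in median among regions bound at all 3 time points, beside 56.4, 63.7 and 65.8 over all divergent promoters.

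The 39 regions of DNA replication and repair genes had median list percentiles of 63.4, 86.0 and 79.1. The highest ranked were Dak/Ddb1 (97.1, 97.4 and 99.8), where Ddb1 encodes a DNA damage-binding protein, Fen1/1810006K21Rik (94.0, 91.9 and 91.2), where Fen1 encodes the flap endonuclease, Pppde2/Xrcc6 (90.5, 97.4 and 89.5), where Xrcc6 encodes Ku70, and Orc4/Mbd5 (90.9, 88.9 and 92.7), where Orc4 encodes a subunit of the origin recognition complex. In ranks among regions bound at all 3 time points, 25 of the 39 were higher at day 28 than at day 0 and 14 were lower. Over all divergent promoters 611 of 865 (70.6%) were higher, so these genes did not stand apart.

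Protein folding and translation genes reached from the top to the bottom of the ranking. Among regions bound at all 3 time points, median ranks at day 0 were 67.9 for the 19 chaperone regions, 67.4 for the 22 of mitochondrial ribosomal proteins, 62.3 for the 10 of aminoacyl-tRNA synthetases and 56.4 for the 13 of cytosolic ribosomal proteins. The lowest included Mrpl46/Mrps11, with 2 mitochondrial ribosomal protein genes (list percentiles 6.62, 65.1 and 58.9), and Wbscr22/Dnajc30 (7.52, 82.5 and 62.7), both named after their values were seen. Among the highest, Mrpl18/Tcp1, which pairs a mitochondrial ribosomal protein with a subunit of the chaperonin CCT, had list percentiles of 96.7, 97.4 and 97.8. Cct7, another CCT subunit, faced 1700040I03Rik (96.4, 97.4 and 97.8), and Hsp90b1, the HSP90 of the endoplasmic reticulum, faced BC030307 (95.9, 97.4 and 97.8). Of the mitochondrial ribosomal protein regions, Mrpl49/Fau stood at 92.5, 97.4 and 97.8 and Ighmbp2/Mrpl21 at 96.3, 92.8 and 94.7. The gene for the cytosolic ribosomal protein Rpl18 faced Sphk2 at a region with percentiles of 97.9, 97.4 and 97.8, and Rpl15/Nkiras1 stood at 86.5, 97.4 and 89.4. Vars, the valyl-tRNA synthetase gene, faced D17H6S56E-5 (87.3, 99.8 and 92.8), and Yars, for the tyrosyl enzyme, faced S100pbp (80.5, 87.3 and 85.6).

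Respiratory chain genes had the lowest day 0 median of these groups, 51.4, followed by 78.4 at day 9 and 74.8 at day 28. Uqcrh/Lrrc41, with a subunit of complex III, was high at every time point (96.6, 92.0 and 95.4), and Sdha/Ccdc127, with the flavoprotein subunit of complex II, stood at 68.0, 87.5 and 79.5. The 7 proteasome regions had median list percentiles of 62.0, 86.0 and 80.6, with Mrpl32/Psma2 at 89.9, 86.1 and 81.4 and Sirt3/Psmd13 at 63.6, 86.0 and 77.9.

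Well-known divergent pairs were spread over the whole range. Of 15 such pairs listed, 12 were annotated as divergent within the distance limit and 11 of these were bound. Hspd1/Hspe1, the pair that encodes the mitochondrial chaperonin HSP60 and its co-chaperonin HSP10, ranked highest with a score of 874 on day 0 and of 3100 on days 9 and 28 (list percentiles 88.3, 97.4 and 97.8). Brca1/Nbr1, with the breast cancer repair gene and an autophagy receptor gene, scored 915, 1601 and 1870. Mcm4/Prkdc, with a replicative helicase subunit and the catalytic subunit of DNA-PK, scored 601, 2265 and 1495. Gart/Son, with a purine synthesis enzyme and a splicing cofactor, scored 433, 3100 and 3052, so its list percentile was 68.2 at day 0 and 97.4 at day 9.

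Other pairs stood lower. Surf1/Surf2 scored 457, 828 and 625, Psmb9/Tap1, an immunoproteasome subunit and the peptide transporter of antigen presentation, 472, 1164 and 600, and Mrps12/Sars2 477, 595 and 596. Below the 50th list percentile at day 0 and above it later were Atm/Npat (40.1, 82.7 and 73.2), with the DNA damage kinase and a coactivator of histone genes, and also Wrap53/Trp53 (39.2, 70.0 and 71.9). The day 9 value of Wrap53/Trp53 is that of a peak centred 1247 bp toward Trp53, which covered neither start. Its peaks of days 0 and 28 covered both starts. The histidyl-tRNA synthetase pair Hars/Hars2 was the only one of the 11 with its highest list percentile at day 0 and its lowest at day 28 (64.3, 56.5 and 53.1) apart from Mrps12/Sars2 (71.6, 70.9 and 66.2).

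The RUNX core was no more frequent at the centres of these peaks than 450 to 550 bp away. A centre here is the middle of the peak interval, not the summit of its signal, so the highest signal may lie outside the window. The paper measured the distance of motifs from peak summits, which was not done here. TGTGGT, on either strand, lay within 50 bp of the peak centre in 31 of 865 divergent promoters at day 0 (3.58%, interval 2.45 to 5.05%), in 35 at day 9 (4.05%, interval 2.83 to 5.58%) and in 32 at day 28 (3.70%, interval 2.54 to 5.18%). In flanks of the same width, 450 to 550 bp from the centre and averaged over both sides, the shares were 4.16%, 5.14% and 5.32%. Median peak widths at divergent promoters were 1176, 1006 and 1220 bp in the 3 lists, so these flanks often lay within the same peak. At startless regions the widths were 909, 613 and 811 bp and the flanks more often lay outside it, so the 2 comparisons are not alike. Single-start regions had the core at the centre in 4.41%, 3.86% and 3.93%, against flanks of 4.96%, 5.05% and 5.12%. Startless regions of the same lists had it in 22.9%, 25.8% and 24.3%, against flanks of 7.91%, 7.48% and 7.69%. With the looser core TGYGGT, in which Y is C or T, the day 9 share at divergent promoters was 7.40%, against flanks of 8.38%.

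**Figure D5:**
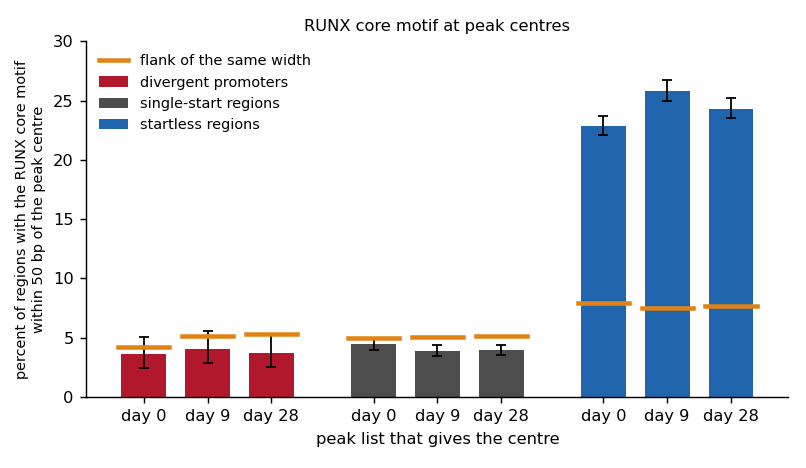
Percent of regions (y axis) with TGTGGT within 50 bp of the peak centre in each list (x axis), with exact 95% intervals, for divergent promoters, single-start regions and startless regions; the orange lines give the mean share in flanks of the same width. At divergent promoters the day 9 share is 4.05% against 5.14% in the flanks, and at startless regions it is 25.8% against 7.48%. The centre is the middle of the peak interval, not the summit.

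The 35 divergent promoters with TGTGGT at the day 9 centre had median list percentiles of 73.3 (interval 63.4 to 80.9), 87.1 (interval 82.9 to 90.7) and 84.6 (interval 82.1 to 91.2). The 830 without it had 65.2, 85.9 and 82.5, so the intervals overlapped at each time point. By rank, the core was present in 5.99% of the 217 highest-ranked divergent promoters (interval 3.23 to 10.0%) and in 2.78% of the 216 lowest-ranked (interval 1.03 to 5.95%).

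The DNA under the peaks was rich in CpG. In 300 bp around the day 9 peak centre the median GC content was 65.7% and the median ratio of observed to expected CpG was 0.875, and 92.5% of regions had GC above 50% with a CpG ratio above 0.6 (interval 90.5 to 94.2%). The same share was 87.3% of single-start regions and 9.54% of startless regions, whose median CpG ratio was 0.243. Annotated pairs that did not meet the rule also differed. These 202 pairs include 110 with a peak on a start in at least 1 list. Around the midpoint between the starts the share was 88.0% of bound divergent promoters and 42.1% of the 202 other pairs (interval 35.2 to 49.2%), and the median CpG ratio was 0.869 and 0.578.

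Other promoter motifs were searched on both strands in the same 300 bp, and neighbouring matches may overlap by a few letters. CCGGAA, the core of ETS factor sites, was found in 37.9% of divergent promoters around the day 9 centre (interval 34.7 to 41.2%) and in 26.4% of single-start regions (interval 25.4 to 27.4%). Around the midpoint between the starts it was in 45.1%, compared with 18.8% of these 202 pairs and 18.7% of windows around the 5'-most start of every protein-coding gene. CCAAT was found in 33.5% of divergent promoters and 24.1% of single-start regions around the peak centre, and in 41.6% around the midpoint, against 37.6% of these 202 pairs and 35.5% of all gene starts. GGGCGG was in 68.9% of divergent promoters and 69.5% of single-start regions around the peak centre. Around the midpoint it was in 70.8% of divergent promoters, with 46.2% over all gene starts. TGTGGT itself was in 9.94% of divergent promoters around the peak centre and 9.83% around the midpoint, with 15.1% of all gene starts in windows of this length.

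Among less frequent motifs, AAGATGGC, a YY1 site, was in 7.28% of divergent promoters and 4.66% of single-start regions (interval 4.19 to 5.18%). CACGTG was in 8.67% and 8.04%, TGACGTCA, the cyclic AMP response element, in 3.93% and 2.15%, and CGCATGCG, the NRF1 core, in 3.70% and 2.62%. TATAAA was in 2.66% and 2.25%. Around the midpoint between the starts it was in 4.16% of divergent promoters and 7.43% of the 202 other pairs, with 10.7% over all gene starts. A match describes letters in a window and does not establish that a factor binds there.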

How the data were processed

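Runx2 ChIP-Seq of MC3T3-E1 cells was analysed from 1 peak list per time point. According to the study's methods and the processing notes of the submitters, base calling used CASAVA 1.6, reads were mapped to mm9 with Bowtie 0.12.8, and MACS 1.4.1 called peaks on the 2 pooled libraries of a time point against input. The score deposited by the authors is that of MACS, minus 10 times log10(p), and no peak scores below 100 (p = 1e-10). The deposited coordinates are peak starts and ends. Signal tracks and the input library were not used here.

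All peaks lay within NCBIM37. Peaks were merged, and starts were those of the 51710 protein-coding transcripts of GENCODE M1 on nuclear chromosomes. The highest-scoring peak of each list stood for a region. No test was made between pooled lists. Intervals are 95% Clopper-Pearson (shares) or order statistics (medians).

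The members and gene lists were chosen with earlier results of these data known. Named were the 6 highest and 6 lowest ranked regions, the 5 largest shifts each way from day 0 to day 28, the 3 pairs on each side of the distance limit, known pairs (2 of which are not reported here), and up to 4 regions per gene list. All 9 histone regions were compared after their values were seen. Sequences on chromosome 18 were not eligible for display. Alternatives covered score thresholds, list length, joining of peaks, starts, distance and motif. The scripts were tested on simulated data with known answers. Statistics came from SciPy 1.17.1 and NumPy 2.4.6 under Python 3.11.15, and plots from Matplotlib 3.10.9.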

Additional observations from a re-analysis of the deposited data

How the results depend on the processing

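No paired analysis was possible because each time point has 1 list pooled over its libraries, and for the same reason no library could be left out. Of 67 values recomputed under alternatives, 47 stayed within the interval of the reported value, or within 1.5 times the count, and 20 moved. With scores of 500 or more 317 divergent promoters remained, and with scores of 200 or more or 500 or more 68.5% and 29.9% of annotated pairs were bound. With lists of equal length the share was 76.6%, with 1 peak over both starts in each list 71.4%, and with starts at most 500 bp apart 84.8%. The median percentile moved under most changes in the length of a list: with scores of 200 or more it was 54.2, 80.3 and 78.3 at days 0, 9 and 28, and with scores of 500 or more 47.1 at day 0 and 81.4 at day 9, while 81.3 at day 28 stayed within its interval. With lists of equal length it was 68.4 at day 9 and 74.6 at day 28, beside 67.1 at day 0, so most of the difference between days 0 and 9 was gone. Percentiles among regions bound at all 3 time points, chosen after seeing the data, were 56.4, 63.7 and 65.8. The RUNX core was in 7.40% of regions as TGYGGT, in 9.94% within 150 bp of the centre, and in 2.54% within 50 bp of the midpoint between the starts. The median distance from centre to midpoint was 113 bp where 1 peak covered both starts in each list. The lists hold no read counts, so the effect of depth on them was not tested.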
